A study of Mus musculus with 2 samples.

Results

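The 7 mature miRNAs described here are mmu-miR-10a-5p and mmu-miR-10b-5p, mmu-miR-99a-5p, mmu-miR-99b-5p and mmu-miR-100-5p, and mmu-miR-125a-5p and mmu-miR-125b-5p, where mmu stands for the mouse and is left out of most names that follow. They were chosen by name as the related miR-10, miR-99/100 and miR-125 families, and they are 7 of the 1881 mature miRNAs on the Agilent mouse miRNA array. The RNA came from exosomes, small vesicles that cells release, isolated from the serum of female C57BL/6 mice. The study's paper gives 6 weeks as the age of mice used for tumour growth, and their age at serum collection was not given. In the LLC group the mice carried subcutaneous tumours grown from 1000000 luciferase-expressing Lewis lung carcinoma cells (LLC), a C57BL/6 mouse lung cancer line. In the MSC+LLC group the LLC cells were injected together with murine bone marrow mesenchymal stem cells (BMSCs), the stromal precursors of bone, cartilage and fat. In both groups the serum was taken when the tumours reached a mean volume of 200 mm3, so both groups bore tumours and neither was a tumour-free control. The titles and treatment protocol in the labels name serum exosomes, while other label fields name the injected cells, lung and bone marrow. The study's paper names plasma. The labels' serum is followed here, and the number of mice behind each array was not given. Each group had 1 array, so every comparison below is between 2 arrays, without biological replicates and without a test, and the SDs are over spots of the same probe on 1 array.

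The members fall into families by their seed, bases 2 to 8 from the 5′ end, which is the stretch of a miRNA that pairs with the messenger RNAs it represses. MiR-10a and miR-10b lie inside the Hox gene clusters, whose genes set position along the body axis. The miR-99/100 and miR-125 miRNAs are encoded beside let-7 miRNAs in 3 clusters, in the order miR-99 or miR-100, let-7, miR-125. MiR-100 and miR-99a are known to repress mTOR, miR-125b is studied in blood formation and in p53 regulation, and miR-10b is known from work on breast cancer invasion.

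Their mature sequences from RefSeq (GRCm38.p6) are printed with the seed in capitals, because the 3 shared seeds define the families and the remaining bases are what tells the members apart on an array.
miR-10a-5p: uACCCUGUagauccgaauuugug
miR-10b-5p: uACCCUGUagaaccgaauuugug
miR-99a-5p: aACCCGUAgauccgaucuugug
miR-100-5p: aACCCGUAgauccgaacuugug
miR-99b-5p: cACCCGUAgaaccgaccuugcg
miR-125a-5p: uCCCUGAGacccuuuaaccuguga
miR-125b-5p: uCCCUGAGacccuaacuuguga

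MiR-10a-5p and miR-10b-5p differ at 1 of 23 bases, U12A, counted from the 5′ end with the base of miR-10a-5p first. MiR-99a-5p and miR-100-5p differ at 1 of 22 bases, U16A. MiR-99b-5p stands further off, with 4 differences from miR-99a-5p (A1C, U11A, U16C and U21C). MiR-125a-5p and miR-125b-5p are identical over the first 13 bases and then part. MiR-10a-5p also shares the run GUAGAUCCGAA of 11 bases with miR-100-5p, across the family border. The deposited files hold no probe sequences, so how far a probe reads a relative that differs by 1 base was not tested. Of 1608 array miRNAs with a RefSeq sequence, the seed of miR-10 is carried by 2 and that of miR-99/100 by 3, all of them members. The seed of miR-125 is carried by 5, of which 2 are members.

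According to RefSeq, Mir10a lies within Hoxb3 on chromosome 11 and Mir10b within the Hoxd3 and Hoxd4 loci on chromosome 2. Mir100, Mirlet7a-2 and Mir125b-1 lie in the host gene Mir100hg on chromosome 9. Mir99a, Mirlet7c-1 and Mir125b-2 follow each other on chromosome 16, and Mir99b, Mirlet7e and Mir125a follow each other within Spaca6 on chromosome 17. The mature miR-125b-5p is the same from chromosomes 9 and 16, so its signal cannot be divided between these genes.

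The MSC+LLC array was far dimmer than the LLC array. Over the probes that both arrays detected, the 75th percentile stood at 2883 intensity units for LLC against 250.3 for MSC+LLC, a gap of 11.5-fold. Detection here asks that the scanner software flagged over 50% of the spots of a probe as well above background. This held for 502 of the 1881 miRNAs with LLC and for 258 with MSC+LLC, and 240 of them had a ratio, of which 94.2% had the dimmer signal with MSC+LLC before scaling. Levels are compared after each array was divided by its own 75th percentile, and a log2 ratio is MSC+LLC over LLC on that scale. The gap was 3.53 on the log2 scale. On that scale the spike-ins added for labelling were lower by 1.32 on MSC+LLC, and those added for hybridization differed by 0.04. Whether the gap came from less exosomal RNA, from the labelling or from the array position was not tested, with 1 array a group.

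Of the 7 members, 5 were detected on the LLC array (miR-10a-5p, miR-10b-5p, miR-99a-5p, miR-100-5p and miR-125b-5p) and 2 of these, miR-10b-5p and miR-125b-5p, on the MSC+LLC array. MiR-99b-5p and miR-125a-5p were detected on neither. Among all array miRNAs, the share detected was 26.7% with LLC and 13.7% with MSC+LLC. Each member has 2 probes of 15 spots, and unless another is named the values below are of the brighter probe, before scaling.

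**Figure D1:**
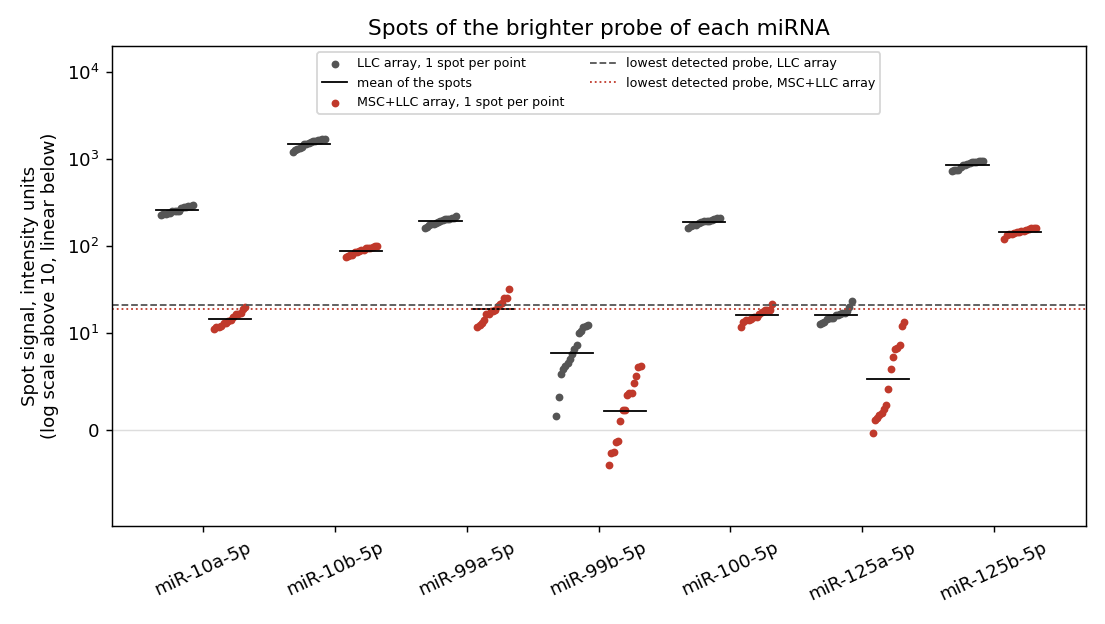
Signal of each spot (points, intensity units, log scale above 10 and linear below) of the brighter probe of each member on the LLC array (grey) and the MSC+LLC array (red), with the mean of the spots as a bar and the lowest detected probe of each array as a broken line. For miR-10a-5p, miR-10b-5p, miR-99a-5p, miR-100-5p and miR-125b-5p every LLC spot lies above every MSC+LLC spot before scaling. The same held for every probe of let-7a-5p, let-7c-5p, let-7e-5p and the markers named below that was detected on LLC. The share over all array miRNAs is not given here. Such a separation is therefore not particular to the members, as the MSC+LLC array was 11.5-fold dimmer. Of the MSC+LLC means, those of miR-10b-5p and miR-125b-5p stand clear of the broken line.

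In the miR-10 family, mmu-miR-10b-5p was measured on both arrays. Its spots ran from 1201 to 1722 intensity units on the LLC array, with a median of 1532 and a mean of 1507 ± 167.5 (SD, 15 spots). On the MSC+LLC array they ran from 75 to 101.1, with a median of 90.1 and a mean of 88.6 ± 8.57 (SD, 15 spots). All spots on both arrays were well above background, and the spots of the arrays did not overlap. The signal was 17.0-fold dimmer on MSC+LLC, more than the 11.5-fold gap between the arrays. After scaling, the log2 ratio of miR-10b-5p was -0.56 with a spot-to-spot SD of 0.21, or 1.48-fold lower on MSC+LLC, and 21.2% of the measured miRNAs had a lower ratio. The second probe of miR-10b-5p read 167.9 ± 14.2 on LLC (SD, 14 spots) and 11.7 ± 3.70 on MSC+LLC (SD, 15 spots), where none of its spots was well above background.

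Mmu-miR-10a-5p, which carries the same seed, was measured on the LLC array only. There its 15 spots ran from 227.2 to 299.2 intensity units, with a median of 253.7, and all were well above background. With MSC+LLC 14 spots ran from 11.2 to 19.7, with a median of 13.7, and 1 was well above background. The spots did not overlap, but the MSC+LLC mean of 14.6 ± 2.71 was under the lowest detected probe of that array, at 18.8. Set against that limit, miR-10a-5p was at least 1.20-fold lower on MSC+LLC after scaling by its brighter probe, a bound that fell away (0.895) when all spots of a detected probe had to be well above background. Its second probe, at 30.6 ± 4.45 on LLC and 2.86 ± 3.10 on MSC+LLC, was too dim to give a bound. For miR-10b-5p the ratio stayed below 0 under every alternative tried, while for miR-10a-5p the arrays give only this limit. Scaling by the percentile of all probes, by spike-ins or not at all lowers every ratio. Those settings could not have turned the ratio of miR-10b-5p positive.

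In the miR-99/100 family no ratio could be given. Mmu-miR-99a-5p had LLC spots from 162.4 to 220.1 intensity units, with a median of 195.8 and a mean of 192.0 ± 17.1 (SD, 15 spots). On MSC+LLC its spots ran from 11.7 to 31.6, with a median of 18 and a mean of 18.9 ± 5.49 (SD, 15 spots), and 6 of the 15 spots were well above background. This was short of the detection rule, and the scaled limit left no fold in either direction.

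Mmu-miR-100-5p gave almost the same picture. Its 13 LLC spots ran from 160.9 to 210.3 intensity units, with a median of 191.4 and a mean of 188.6 ± 15.8. Its 13 MSC+LLC spots ran from 11.7 to 21.6, with a median of 15.4 and a mean of 16.1 ± 2.65, and 1 was well above background. On LLC the second probes of miR-99a-5p and miR-100-5p read 14.1 ± 2.95 and 4.48 ± 3.14, each with 0 of 15 spots well above background. Their detection on LLC thus rests on the brighter probe alone. For the brighter probe of both miRNAs the spots of the arrays did not overlap before scaling. This was also so for the probes of let-7a-5p, let-7c-5p, let-7e-5p and the markers detected on LLC.

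Mmu-miR-99b-5p, the member that differs most in sequence from the other miR-99/100 miRNAs, was at background on both arrays. Its LLC spots ran from 1.38 to 12.3 intensity units, with a median of 7.78 and a mean of 7.94 ± 3.13 (SD, 15 spots). Its MSC+LLC mean was 1.93 ± 3.41, and no spot on either array was well above background. For comparison, the negative control spots averaged 2.76 ± 3.90 on LLC and 4.21 ± 3.61 on MSC+LLC (SD, 594 and 580 spots), and their highest spots were at 14.4 and 18.2.

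The reach of the dimmer array limits these values. A miRNA at an equal scaled level on both arrays needed 216.5 intensity units on LLC to meet the lowest detected MSC+LLC probe, and the brighter probes of 4 members (miR-99a-5p, miR-99b-5p, miR-100-5p and miR-125a-5p) were below that. Their lack of a call on MSC+LLC is therefore no measure of a lower level there.

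In the miR-125 family, mmu-miR-125b-5p was measured on both arrays. Its LLC spots ran from 732.5 to 959.1 intensity units, with a median of 881.6 and a mean of 860.8 ± 80.8 (SD, 15 spots). Its MSC+LLC spots ran from 121.4 to 162.0, with a median of 147.0 and a mean of 146.7 ± 11.5 (SD, 14 spots). Every spot was well above background, and the MSC+LLC spots lay below all LLC spots. The signal was 5.87-fold dimmer on MSC+LLC, less than the 11.5-fold gap between the arrays. After scaling, the log2 ratio of miR-125b-5p was 0.97 with a spot-to-spot SD of 0.18, or 1.96-fold higher on MSC+LLC, but it turned to -0.24 when the 75th percentile was taken over all probes and to between -1.24 and -2.59 under spike-in scaling or none. Of the measured miRNAs, 71.7% had a lower ratio. The second probe of miR-125b-5p read 24.6 ± 3.96 on LLC, with 10 of 13 spots well above background, and 5.60 ± 3.24 on MSC+LLC, with 0 of 15.

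Mmu-miR-125a-5p was not detected on either array. Its LLC spots ran from 12.5 to 23.4 intensity units, with a median of 15.9 and a mean of 16.1 ± 2.84, and 1 of 15 was well above background. Its MSC+LLC spots ran from -0.31 to 13.4, with a median of 4.15 and a mean of 5.24 ± 4.33, and none was well above background. The spots of the arrays overlapped.

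**Figure D2:**
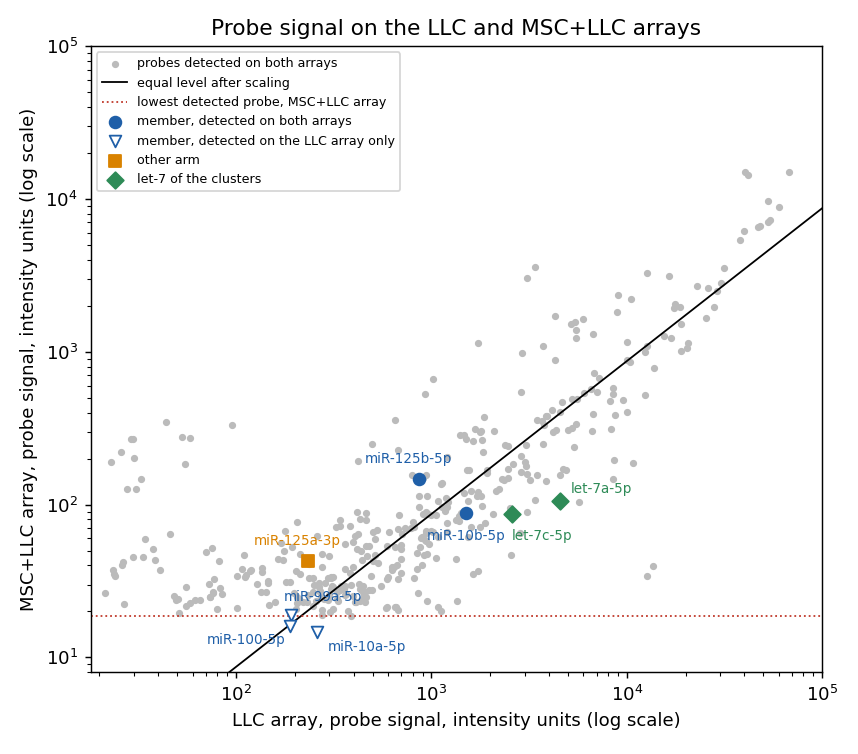
Mean signal of each probe detected on both arrays (grey points, intensity units, log scales) for LLC (x axis) and MSC+LLC (y axis), with the brightest probe of the miRNAs named and the line of equal level after scaling. MiR-125b-5p and miR-125a-3p lie above the line and miR-10b-5p, let-7c-5p and let-7a-5p below it. MiR-99a-5p lies at the lowest detected MSC+LLC probe (dotted), and miR-10a-5p and miR-100-5p lie under it. With no scaling every named miRNA was dimmer on MSC+LLC.

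Of the 2 members measured on both arrays, 0 reached 2-fold in the higher direction and 0 in the lower. Of the 240 miRNAs with a ratio, 27.1% reached 2-fold higher and 11.2% reached 2-fold lower. The median log2 ratio of the 2 members was 0.21, beside 0.15 for all 240, and it was negative under 7 other settings. A count over 2 members says little of the families, since miR-10b-5p and miR-125b-5p lay on opposite sides of 0.

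The members were therefore compared with each other, because a scaling by 1 factor per array moves all ratios alike and leaves their difference as it was. The log2 ratio of miR-125b-5p exceeded that of miR-10b-5p by 1.53 with a spot-to-spot SD of 0.28, or 2.90-fold. Of the alternatives, 9 left this difference as it was. Those that change only the factor per array do so by construction. Those that change detection or the choice of probes did so because neither second probe had an MSC+LLC spot well above background. Under the 6 that could move it (quantile normalization without and with normexp background correction, outlier spots kept, the median of the spots, summed probes and the authors' values) it was 1.44 to 1.65. With 1 array per group it still has no biological replicate.

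The let-7 miRNAs encoded between the members of each cluster were examined too, although mature let-7a-5p and let-7c-5p do not read a single cluster. The let-7 family is known for promoting differentiation and for repressing Ras and Lin28, and other genes not studied here also encode let-7a-5p and let-7c-5p. Let-7a-5p, encoded between Mir100 and Mir125b-1, read 4525 ± 121.6 intensity units on LLC (SD, 15 spots) and 106.1 ± 7.45 on MSC+LLC (SD, 14 spots). Its log2 ratio was -1.94 (spot-to-spot SD 0.14), or 3.84-fold lower on MSC+LLC. Let-7c-5p, encoded between Mir99a and Mir125b-2, read 2581 ± 191.1 on LLC and 86.2 ± 8.92 on MSC+LLC (SD, 15 spots each), a log2 ratio of -1.39 (spot-to-spot SD 0.16), or 2.63-fold lower. Both let-7 miRNAs thus had lower ratios than miR-125b-5p, which shares both clusters. The difference was 2.92 on the log2 scale (SD 0.23, 7.55-fold) against let-7a-5p and 2.37 (SD 0.24, 5.16-fold) against let-7c-5p. MiR-10b-5p, which has no let-7 neighbour, exceeded let-7a-5p by 1.38 (SD 0.26, 2.60-fold). Of the let-7 miRNAs outside these clusters, let-7f-5p and let-7g-5p were also dimmer by far more than the 11.5-fold gap between the arrays. A low ratio was thus not particular to let-7a-5p and let-7c-5p, though scaled ratios of the others are not given here. Let-7f-5p read 5662 on LLC and 104.7 on MSC+LLC, and let-7g-5p read 8635.5 and 194.4. Let-7b-5p fell less, from 3063 to 179.2.

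In the third cluster little was measured on the 5′ arms. Let-7e-5p read 57.8 ± 5.86 on LLC, with all 15 spots well above background, and 4.04 ± 3.84 on MSC+LLC, with none. Too dim on LLC for a fold, it is encoded between those of miR-99b-5p and miR-125a-5p, which were not detected at all.

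**Figure D3:**
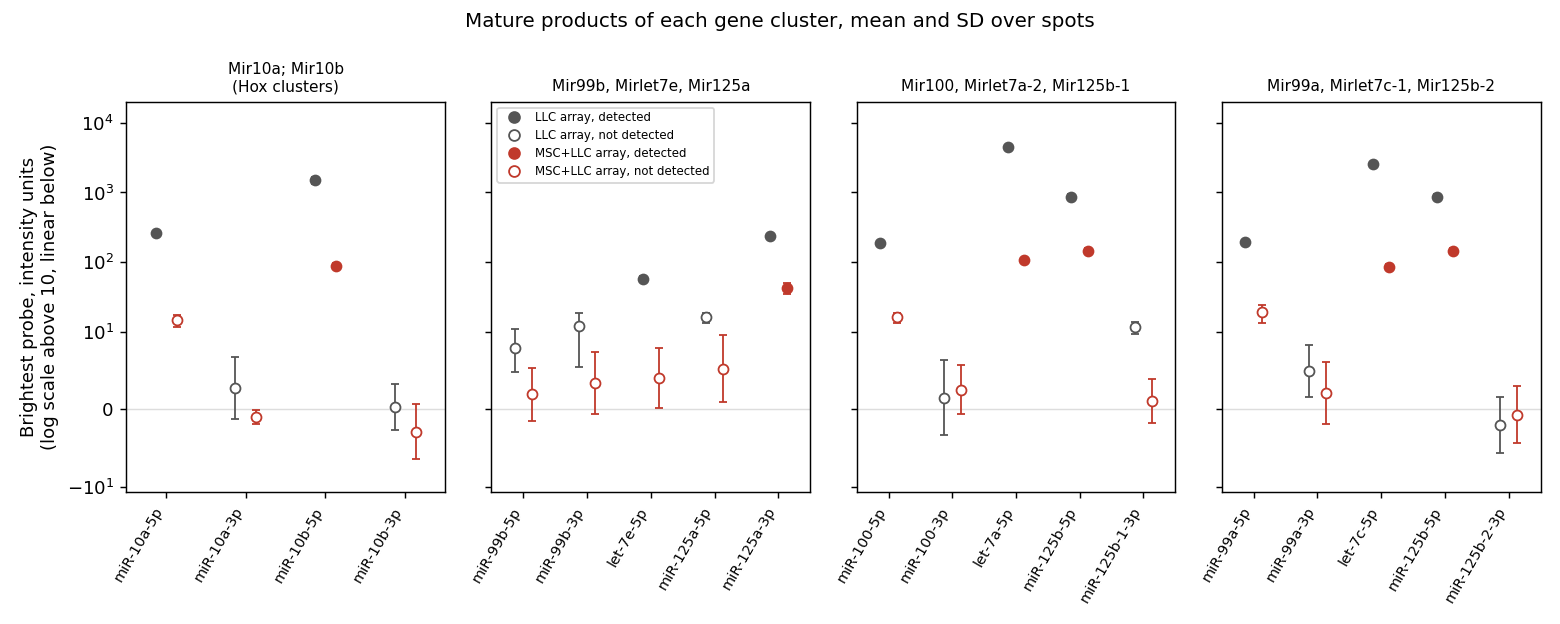
Mean signal of the brightest probe (points, intensity units, log scale above 10 and linear below) with the SD over spots (bars) on the LLC array (grey) and the MSC+LLC array (red) for the mature miRNAs of each gene cluster, filled where detected. In the Mir99b cluster miR-125a-3p is the miRNA detected on both arrays, and in the other let-7 clusters the gap between the arrays is wider for let-7 than for miR-125b-5p; miR-125b-5p is drawn in both clusters that encode it.

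The opposite arm of each precursor is made with the member and usually kept at a lower level. Of the 8 opposite arms on the array, miR-125a-3p was detected, on both arrays, and the other 7 on neither. The Mir125a precursor is printed with both arms in capitals, since the detected and the undetected product come from this one hairpin (RefSeq, GRCm38.p6, chromosome 17, plus strand, 68 bases).
Mir125a precursor: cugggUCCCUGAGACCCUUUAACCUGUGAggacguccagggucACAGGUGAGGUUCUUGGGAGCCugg

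The 3′ arm has a seed of its own and so other predicted targets than the members.
miR-125a-3p: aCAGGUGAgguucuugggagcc

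The brightest of its 4 probes had 7 spots from 211.1 to 267.0 intensity units on LLC, with a median of 238.6 and a mean of 234.3 ± 20.0. On MSC+LLC the 7 spots ran from 32.3 to 53.7, with a median of 45.2 and a mean of 42.5 ± 7.66. All spots of the 4 probes were well above background on both arrays. The log2 ratio of miR-125a-3p was 1.67 with a spot-to-spot SD of 0.13, or 3.17-fold higher on MSC+LLC, but it was -0.54 with the labelling spike-ins and -1.86 with no scaling. Of the measured miRNAs, 80.8% had a lower ratio. The probes disagreed in size, with 1.06 from the brightest and 1.82 to 1.95 from the other 3, whose LLC means were 101.2 to 118.2. The log2 ratio of miR-125a-3p exceeded that of miR-10b-5p by 2.23 (SD 0.25, 4.68-fold), with 1.42 and 2.32 as the lowest and highest values among the alternatives. Against miR-125b-5p it was higher by 0.69 (SD 0.22, 1.62-fold), which shrank to 0.09 with the brightest probe alone and to -0.02 after normexp background correction and quantile normalization, so those 2 miRNAs cannot be placed in order.

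Other miRNAs with the miR-125 seed added no measured ratio. MiR-351-5p and miR-6367 were detected on neither array. MiR-6394 was detected on LLC, at 121.8 ± 9.03 and 100.2 ± 9.32 by its 2 probes (SD, 15 spots each), and read 4.29 ± 3.75 and 3.04 ± 3.19 on MSC+LLC, where no spot was well above background. At these LLC levels no fold could be given.

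**Figure D4:**
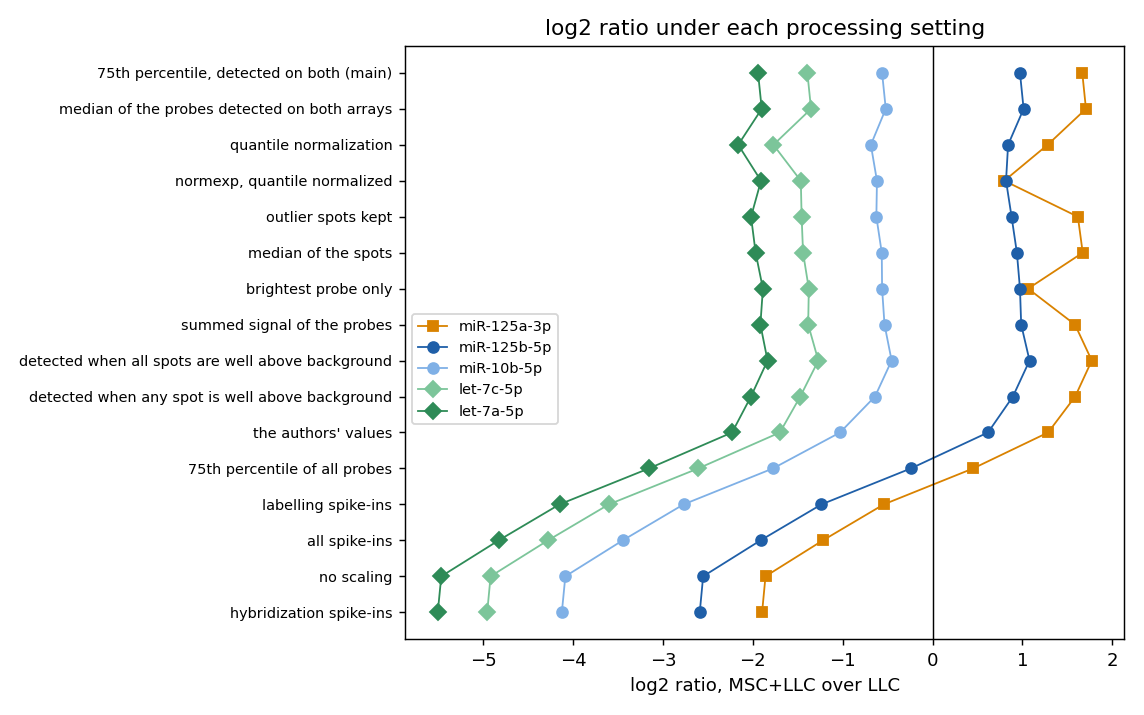
The log2 ratio of MSC+LLC over LLC (x axis) of miR-125a-3p, miR-125b-5p, miR-10b-5p, let-7c-5p and let-7a-5p under the main setting and 15 other processing settings (y axis). The order miR-125b-5p, miR-10b-5p, let-7c-5p, let-7a-5p is the same in every row, part of which follows from scalings by 1 factor per array, while the place of 0 moves with the scaling, so that miR-125b-5p runs from 1.08 to -2.59 and miR-125a-3p from 1.77 to -1.90.

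The deposited log2 values of the authors call more members. They equal log2 of the summed signal minus 1 constant per array (7.02 for LLC and 3.48 for MSC+LLC), to within 7.66e-06, with undetected miRNAs set to a signal of 0.1. In them 5 members were detected on both arrays, miR-125a-5p was detected on LLC only and miR-99b-5p on neither. The log2 ratio was -1.10 for miR-10a-5p and -1.03 for miR-10b-5p. It was -0.23 for miR-99a-5p, -0.34 for miR-100-5p and 0.62 for miR-125b-5p. The median over all 295 miRNAs detected on both arrays in these values was -0.20, so miR-125b-5p was above it, miR-99a-5p and miR-100-5p were close to it, and both miR-10 miRNAs were below it. For miR-10a-5p, miR-99a-5p and miR-100-5p the MSC+LLC side of these ratios rests on probes with 1, 6 and 1 spots well above background.

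The 3 miRNAs with at least 2 probes whose log2 ratio came closest to the members' median of 0.21 were miR-7118-5p at 0.22, miR-221-3p at 0.19 and miR-7011-5p at 0.22. The distances were 0.010, 0.013 and 0.016, over the same 2 arrays. That median is the midpoint between miR-10b-5p at -0.56 and miR-125b-5p at 0.97, and it lay near the median of all 240 miRNAs, 0.15. Closeness to it is therefore not likeness to either member.

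Markers of other sources of serum miRNA had log2 ratios on both sides of 0 after scaling, and all those measured were dimmer on MSC+LLC before it. Of 3 red blood cell miRNAs, miR-451a and miR-486a-5p had log2 ratios of 1.06 and 1.66 and miR-144-3p of -2.33. Of the liver miRNAs, miR-122-5p was at 0.78 and miR-192-5p at -0.32. Of the platelet and leukocyte miRNAs, miR-223-3p was at 0.14, miR-142a-3p at -2.25, and miR-150-5p was detected on LLC only. Of 4 miRNAs typical of mesenchymal cells, miR-199a-3p was at 0.57 and miR-214-3p at 0.82, miR-143-3p was detected on LLC only and miR-145a-5p on neither. Their part in the values of miR-10b-5p and miR-125b-5p was not tested.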

How the data were processed

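Exosomal RNA of 1 LLC and 1 MSC+LLC serum sample was labelled with Cy3 (100 ng input) and run on 1-colour Agilent mouse miRNA arrays, both on 1 slide. Groups came from the sample titles. Per the file headers, the authors used Feature Extraction 11.5.1.1 (the submitters' processing notes name 10.7). Its deposited values are background-subtracted intensity on a linear scale. The deposited log2 table was made by the authors with GeneSpring GX 11.0. Without replicates no test was possible, and the number of arrays limits the precision.

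Control spots and outlier spots (3.04% on LLC, 2.95% on MSC+LLC) were left out, and no spot was saturated. Spots of a probe were averaged, and detection needed over 50% of them well above background. Signals were scaled to the 75th percentile over probes that both arrays detected, and log2 ratios were averaged over those probes of a miRNA. A probe detected on 1 array gave a bound against the higher of its own signal and the lowest detected probe on the other array, and none under 1-fold.

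The members and lists were chosen with earlier results of these data known. The miRNAs named were the members, their opposite arms, the let-7 miRNAs of their clusters, array miRNAs of the same seed, the 3 closest in ratio and 12 markers. Sequences, seeds and neighbouring genes were taken from RefSeq (GRCm38.p6), and no coordinates were used. Alternatives covered scaling, background correction, detection, outliers, probes, threshold and the authors' values. The calculation of ratios was tested on simulated arrays, for bright miRNAs and with the true scale factor given. That test did not check the scaling or the bounds. All steps were run with Python 3.11.15, numpy 2.4.6, pandas 2.3.3 and, for normexp (offset 50), limma 3.58.1 in R 4.3.3. Figures were drawn with matplotlib 3.10.9.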

Additional observations from a re-analysis of the deposited data

How the results depend on the processing

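No paired analysis was possible because there was 1 array for each group, and no replicate could be left out. The scaling decided the direction of miR-125b-5p. Taking the 75th percentile over all probes turned its log2 ratio to -0.24. Scaling by spike-ins gave -1.24 (labelling), -1.91 (all) and -2.59 (hybridization), and no scaling gave -2.55. These settings lower every ratio, so miR-10b-5p could only stay negative. It was at -1.78, -2.77, -3.45, -4.13 and -4.09 in the same order, and the median of the members was -1.01, -2.0, -2.68, -3.36 and -3.32. The authors' values gave -1.03 for miR-10b-5p, 0.62 for miR-125b-5p and a median of -0.34. The second, dimmer probe alone, an alternative chosen after seeing the data, gave -0.31 for miR-10b-5p and 1.39 for miR-125b-5p, but none of its MSC+LLC spots was well above background, so these values support nothing. The median over 5 members was -0.11 when any spot well above background sufficed.

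MiR-125a-3p was at -0.54, -1.22 and -1.90 when scaled by labelling, all and hybridization spike-ins, and at -1.86 unscaled. Members at least 2-fold lower numbered 1 when that percentile ran over all probes and were both measured members with the labelling, hybridization or all spike-ins or no scaling. Of all 240 miRNAs, 180, 217 and 204 were at least 2-fold lower with the labelling, hybridization and all spike-ins, so most of the array was called there. In the authors' values 2 of 5 members were at least 2-fold lower, miR-10a-5p and miR-10b-5p, beside 58 of all 295 miRNAs. Members at least 2-fold higher numbered 1 with median scaling, beside 71 of all 240 miRNAs. They also numbered 1 when all spots had to be well above background, beside 59 of all 198. At a 1.5-fold threshold 1 member passed, and the share over all miRNAs is not given here. Over all measured miRNAs, 65 were at least 2-fold higher and 27 lower, against 27 and 127 when the percentile ran over all probes, 8 and 217 with no scaling, 59 and 41 with quantile normalization, and 34 and 28 with normexp and quantile normalization together. The bound of 1.20-fold for miR-10a-5p ran from 0.895 (no bound) to 14.2-fold. The difference between miR-125b-5p and miR-10b-5p moved by less than its SD over spots under the 6 alternatives that could move it with detected probes, and 9 others left it as it was. The spike-ins added for labelling were lower by 1.32 on the log2 scale on MSC+LLC, and those added for hybridization differed by 0.04. What caused the gap between the arrays was not tested.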
